A study of Rattus norvegicus with 4 samples.

Results

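The ATP-binding cassette (ABC) transporters were followed in ventricular heart muscle cells of newborn rats treated in culture with the proteasome inhibitor carfilzomib. Members were the rows of the expression table whose symbol is Abc, a subfamily letter from a to g, a number and at most 1 further letter. This rule found 46 of 18699 genes, and it used no measured value. Of these, 37 had enough counts to be tested. The rows Abcg3l1, Abcg3l3 and Abcg3l4 do not match the pattern, and the family members with other names, Tap1, Tap2 and Cftr, were described beside the members.

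The study compared 2 groups of 2 libraries each. Both held wild-type ventricular myocytes isolated from Sprague Dawley rats aged 1 to 3 days. All cells were grown in DMEM with 15% serum, penicillin, streptomycin and L-glutamine and bromodeoxyuridine at 0.1 mM, an agent used against dividing cells. One group received vehicle and the other 1 µM carfilzomib, each for 24 h. Whether replicate libraries stem from different cultures or litters is not stated; the p-values below therefore reflect the spread among these libraries alone, which may be technical.

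ABC proteins bind and split ATP at paired nucleotide-binding domains, and most use that cycle to move a substrate across a membrane. The A and G subfamilies are known mainly for lipids and sterols, B for drugs, peptides and mitochondrial substrates, C for organic anions and for the regulatory subunits of potassium channels, and D for import into peroxisomes. E and F members have no membrane domain and act on ribosomes and translation. In heart muscle the family is best known for the ATP-sensitive potassium channel, and in cancer for drug efflux; carfilzomib itself is a substrate of P-glycoprotein.

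Libraries held 18655450 to 18884333 counts, and ABC genes took 0.149% and 0.145% of the counts in the vehicle libraries and 0.205% and 0.209% in the carfilzomib libraries. All 8 cardiomyocyte markers were detected and fell, with a summed level of 26972 to 27211 CPM (counts scaled to library size) with vehicle and 5430 to 5660 CPM with carfilzomib. All 8 fibroblast markers fell too, from a sum of 27667 to 28225 CPM to one of 14779 to 15503 CPM. Col1a1 alone made up 19403 and 19914 CPM of that sum in the vehicle libraries. CPM are not scaled to gene length, so these sums do not compare the abundance of cell types. The 4 smooth muscle markers fell from 3702 to 3841 CPM to 1258 to 1295 CPM, and the 3 pericyte markers from 299 to 312 CPM to 172 to 175 CPM. Macrophage markers summed to 57.2 to 60.3 CPM with vehicle and 44.1 to 48.5 CPM with carfilzomib, with 5 of 8 lower, 1 higher and 2 not tested; endothelial markers summed to 74.2 to 75.2 and 80.6 to 82.7 CPM, with 2 of 6 lower and 2 higher. No marker was at 0 in all libraries. In bulk RNA fewer cells of a type and less RNA per cell cannot be told apart, and the part of these shifts in the results on ABC genes was not tested.

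Of the tested ABC genes 15 rose and 9 fell, while 13 did not pass. The background was high: 60.7% of all genes tested were called, with 30.6% higher and 30.1% lower, against 64.9%, 40.5% and 24.3% of the tested ABC genes. A gene was called when its adjusted p over all genes tested was under 0.05 (edgeR, quasi-likelihood F test). Fold changes are carfilzomib over vehicle throughout. The median log2 fold change of the tested members was 0.08, against 0.00 over all genes tested, and the median absolute change was 0.52 against 0.34. In all 24 called members the CPM of the 2 groups did not overlap, which was also true of 8 of the 13 others and of 79.9% of all genes tested (39.8% with carfilzomib above and 40.0% with it below). The authors' deposited table lists 19 members with a q-value up to 0.05, 14 higher and 5 lower; all 19 are among the 24. Decimal counts, that is, deposited counts with decimals in at least 1 library, were present in 5 of the 15 members that rose and 7 of the 9 that fell, and their origin is not known here.

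Levels between genes were compared per length, as the authors' FPKM (fragment counts scaled to gene length and library size). The most abundant ABC genes with vehicle were not transporters. Abce1, which splits ribosomes after termination, stood at 59.7 ± 1.61 FPKM (mean ± SD, n = 2), Abcf1, a translation initiation factor, at 53.9 ± 1.17 and its relative Abcf2 at 42.3 ± 0.61. The level of 10 FPKM was reached by 11 members with vehicle and 15 with carfilzomib. The order of levels changed most for Abca2, which went from rank 20 to rank 6 of the 46 members, while Abcb6 went from rank 6 to rank 3 and Abcc9 from rank 11 to rank 18. The ranks of Abcf1 and Abce1, the first pair in both groups, were exchanged.

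**Figure D1:**
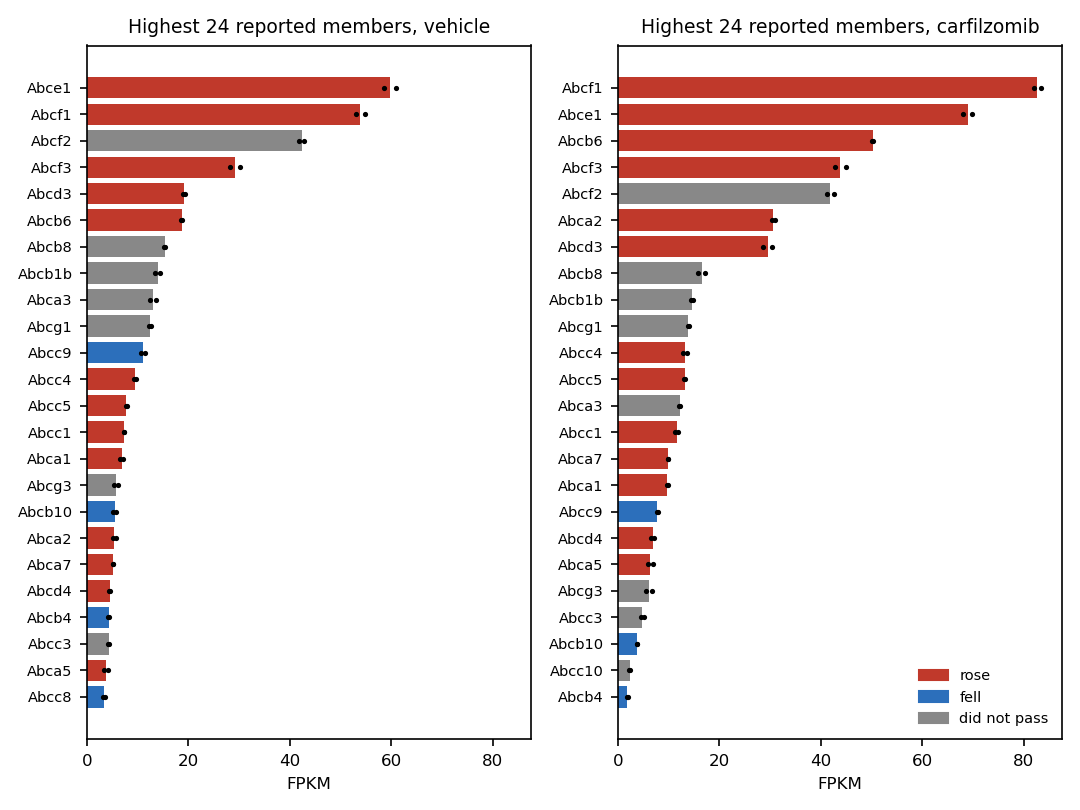
Deposited FPKM of the 24 most abundant ABC genes in each group, among those reported here. Bars are means of 2 libraries, points are the single libraries, and colours mark genes that rose, fell or did not pass in the comparison of the groups; Abca2 and Abcb6 move up the order with carfilzomib, to 30.7 and 50.2 FPKM.

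Another 9 members were not tested because their counts were too low, from 0 to 14 per library. They were Abca6, Abca12, Abca14, Abca17, Abcb11, Abcc2, Abcc6, Abcg5 and Abcg8. Among them are the pumps of the bile canaliculus, Abcb11 for bile salts and Abcc2 for conjugates, and the plant sterol exporter formed by Abcg5 and Abcg8. These genes were at or near the detection limit in both groups, and no change could be read from them.

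Rises outnumbered falls in subfamilies A, C, D, E and F, but not in B and G. In subfamily A 5 of 10 tested members rose and 2 fell (median log2 fold change 0.27). With a stricter low-count filter (at least 1 CPM in 2 libraries and 50 counts in total), which dropped Abca4, the subfamily A median was 0.07. In subfamily D 3 of 4 rose and 1 fell, with a median of 0.55. Subfamily B had 1 rise and 3 falls among 8, subfamily C 3 rises and 2 falls among 7, and subfamily F 2 rises among 3, while Abce1, the 1 member of E, rose. In subfamily G none of 4 rose and 1 fell. Changes of at least 2-fold were seen in 3 members that rose, Abca2, Abca4 and Abcb6, and in 2 that fell, Abcb4 and Abcc8, against 3.74% and 7.38% of all genes tested.

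**Figure D2:**
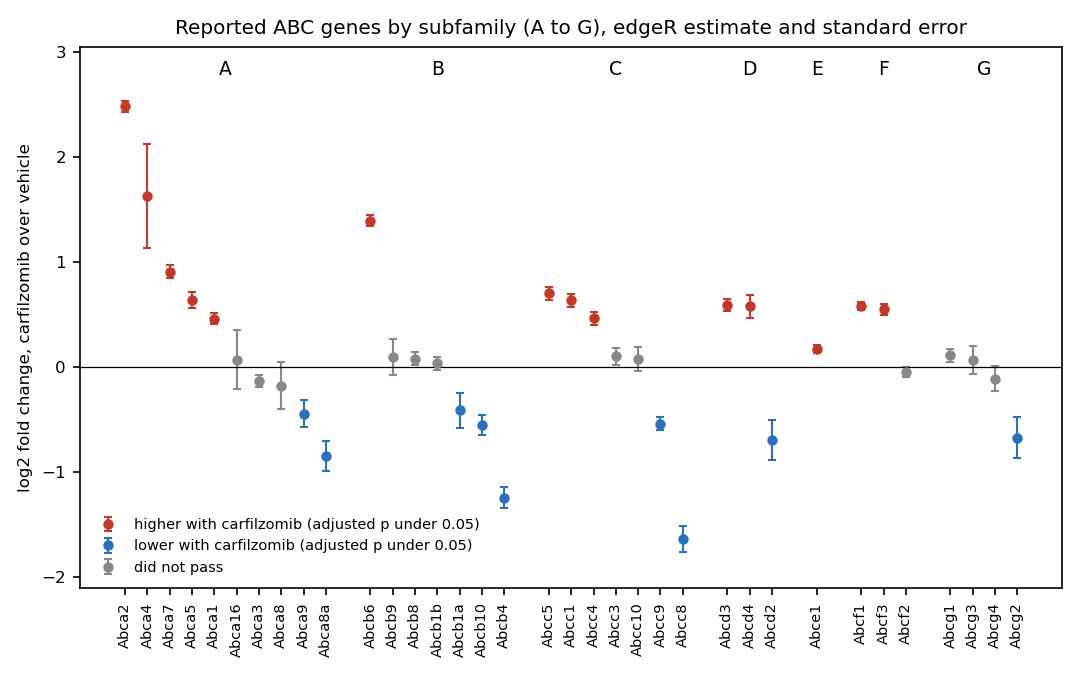
Log2 fold changes of the tested ABC genes that are reported here, grouped by subfamily letter. Points are edgeR estimates with standard errors, coloured by call; Abca2 lies highest at 2.49 and Abcc8 lowest at -1.64.

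Among the lipid and sterol transporters the largest rise was that of Abca2 (gene ID 79248), a transporter of late endosomes and lysosomes known from brain and myelin lipids. It was at 41.1 and 45.7 CPM in the vehicle libraries and at 246 and 240.5 CPM in the carfilzomib libraries. Both treated libraries lay far above both controls. The rise was 5.60-fold, a log2 fold change of 2.49 (SE 0.05, edgeR adjusted p = 2.97e-14), which placed Abca2 at rank 50 among the 14519 tested genes ordered by rise. Its share of the summed FPKM of the ABC genes went from 1.38% to 5.78%. Its deposited counts were whole numbers in every library.

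Abca1 (gene ID 313210), which loads cholesterol and phospholipid onto apolipoproteins and is the classical target of the sterol-sensing LXR receptors, rose far less. It was at 74.7 and 69.0 CPM with vehicle and 98.2 and 99.97 CPM with carfilzomib. The groups did not overlap, and the log2 fold change was 0.46 (SE 0.06, edgeR adjusted p = 4.52e-06). Per length, Abca2 was below Abca1 in both vehicle libraries, at 0.715 and 0.857 of its FPKM, and above it in both carfilzomib libraries, at 3.23 and 3.11 times.

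The RefSeq bases upstream of these genes are shown because Abca2 and Abca1 had such different rises. Windows (build GRCr8) hold the bases before the annotated first base of the gene, 5′ to 3′ on the gene's strand: chr3:28642534-28642659, plus strand, for Abca2 and chr5:72596564-72596723, minus strand, for Abca1. Capitals mark matches to 1 of 5 promoter motifs on either strand, whose letters are given with their frequencies further on.
Abca2: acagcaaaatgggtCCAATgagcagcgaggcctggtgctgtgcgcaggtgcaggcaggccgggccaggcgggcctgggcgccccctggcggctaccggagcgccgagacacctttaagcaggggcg
Abca1: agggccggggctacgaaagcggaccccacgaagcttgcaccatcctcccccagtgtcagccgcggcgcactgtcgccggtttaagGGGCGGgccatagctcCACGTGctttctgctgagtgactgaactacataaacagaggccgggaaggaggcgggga
The printed windows, of 126 bases for Abca2 and 160 for Abca1, are short because the listed start of each lies inside the annotated gene and the bases within the gene were left out. Over all 250 bases before the listed start, Abca2 held 3 GC boxes and a CCAAT box, and Abca1 held a GC box, a TATA box and an E-box.

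Other lipid transporters also rose, of which Abca7 and Abca5 were chosen after their values were seen. Abca7, which moves phospholipids and is a risk gene for Alzheimer's disease, was at 35.3 and 34.2 CPM with vehicle and 65.3 in both treated libraries, a log2 fold change of 0.91. Abca5, a lysosomal relative, was at 31.7 and 27.6 CPM with vehicle and 43.7 and 48.5 CPM with carfilzomib, a log2 fold change of 0.64. The retinal flippase gene Abca4 was barely detected. It had 11 and 9 counts with vehicle and 17 and 47 with carfilzomib, and its log2 fold change of 1.63 (edgeR adjusted p = 0.0141) was 0.72 without carfilzomib replicate 2 (edgeR adjusted p = 0.321). Without vehicle replicate 1 or vehicle replicate 2 it missed the threshold too, at edgeR adjusted p = 0.0661 and 0.103.

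Abcb4, which flips phosphatidylcholine into bile, had the largest fall of this group. It was at 18.1 and 18.0 CPM with vehicle and 7.60 and 7.68 CPM with carfilzomib, so the treated libraries lay below both controls. The log2 fold change was -1.24 (SE 0.10, edgeR adjusted p = 7.96e-08). Abca8a, with decimal counts, fell by 0.84 on the log2 scale, from 8.61 and 8.22 to 4.66 and 4.71 CPM. Of the lipid transporters 3 were tested and did not pass: Abca3, the surfactant lipid pump of lung, at -0.13, Abcg1, which passes cholesterol to lipoproteins, at 0.11, and its relative Abcg4 at -0.11.

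The multidrug pumps did not move as a set: of 4, 1 rose, 2 fell and 1 did not pass. All 4 have decimal counts. Abcc1 (gene ID 24565), which exports glutathione conjugates and leukotrienes, was at 35.7 and 36.8 CPM with vehicle and 55.0 and 57.8 CPM with carfilzomib. Its rise was clear of the spread, with a log2 fold change of 0.64 (SE 0.06, edgeR adjusted p = 4.46e-07). Rodents carry a pair of P-glycoprotein genes, Abcb1a and Abcb1b, and in these cells Abcb1b was the abundant copy.

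Abcb1b (gene ID 24646) was at 57.7 and 54.2 CPM with vehicle and 56.8 and 58.1 CPM with carfilzomib. The groups overlapped, and the difference of 0.04 ± 0.06 (SE) on the log2 scale missed the threshold (edgeR adjusted p = 0.611). Abcb1a (gene ID 170913) was near the low end, at 5.97 and 5.09 CPM with vehicle and 4.35 and 3.97 CPM with carfilzomib. The log2 fold change of -0.41 ± 0.17 (SE) passed narrowly, with an edgeR adjusted p = 0.0457, and was lost when any 1 library was left out, with values from -0.52 to -0.29 and edgeR adjusted p from 0.0518 to 0.279. The call was also lost with the replicate block (edgeR adjusted p = 0.0636), library size scaling alone (0.0641) and no low-count filter (0.0553). With limma-voom the adjusted p was 0.05075. It was kept with RLE scaling (edgeR adjusted p = 0.0450) and the stricter low-count filter (0.0437).

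Abcb1b exceeded Abcb1a per length in every library, by 11.9 and 13.2 times with vehicle and 16.4 and 17.9 times with carfilzomib. Abcb1a, Abcb1b and Abcb4 follow each other among the protein-coding genes in RefSeq GRCr8, and all have decimal counts. With the counts of Abcb1a and Abcb1b summed, an alternative chosen after seeing the data, the log2 fold change was 0.0037, with an edgeR adjusted p = 0.962. The fall of Abcb4 held when any 1 library was left out, from -1.25 to -1.23.

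Abcg2 (gene ID 312382), the breast cancer resistance protein, which also exports urate and porphyrins, was at 4.31 and 4.33 CPM with vehicle and 3.04 and 2.38 CPM with carfilzomib. Both treated libraries were lower, and the log2 fold change was -0.67 (SE 0.20, edgeR adjusted p = 0.00884). The call did not hold without vehicle replicate 1, without vehicle replicate 2 or without carfilzomib replicate 2, at edgeR adjusted p = 0.0558, 0.0541 and 0.0994. Under DESeq2 the adjusted p of Abcg2 was 0.125 and that of Abcb1a 0.292.

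Set side by side, the 4 multidrug pumps summed to 24.3 ± 0.67 FPKM with vehicle and 28.4 ± 0.45 FPKM with carfilzomib (mean ± SD, n = 2). The 13 lipid and sterol transporters summed to 53.4 ± 1.21 and 86.5 ± 0.67 FPKM. Without Abca2 the latter sums were 48.1 ± 1.58 and 55.8 ± 1.03 FPKM, so most of the difference was that of 1 gene. Of 10 tested lipid transporters 5 rose and 2 fell, with a median log2 fold change of 0.29. The median of the pumps was -0.19. Under the stricter low-count filter, which dropped the barely detected Abca4, these medians were 0.11 and -0.19. Without each library in turn the lipid median lay between 0.28 and 0.52. The difference between these groups of genes was not tested.

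**Figure D3:**
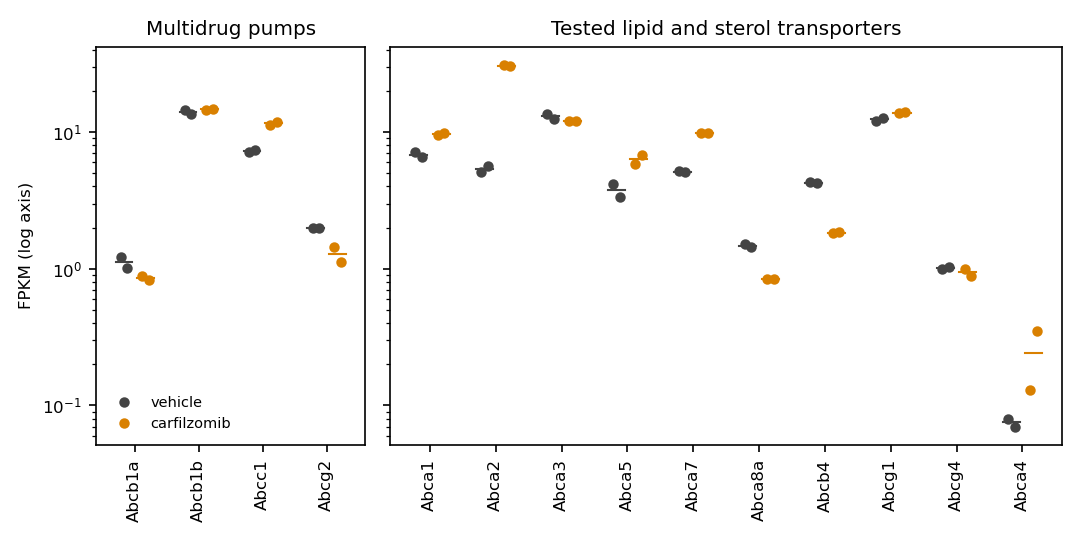
Deposited FPKM per library, on a log axis, of the multidrug pumps and of the 10 tested lipid and sterol transporters. Points are single libraries and short lines are group means. Abca2 has the widest gap between groups, while the Abcb1b points lie close together, from 13.48 to 14.85 FPKM.

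Other organic anion pumps rose or did not pass. Abcc4 (gene ID 170924), which exports cyclic nucleotides and prostaglandins, was at 53.4 and 51.8 CPM with vehicle and 70.6 and 74.8 CPM with carfilzomib, with decimal counts. The log2 fold change was 0.47 (SE 0.06, edgeR adjusted p = 8.42e-06). Abcc5, another exporter of cyclic nucleotides, went from 49.95 and 48.3 CPM to 79.9 and 80.1 CPM, a log2 fold change of 0.70 (edgeR adjusted p = 6.96e-08). Abcc3 and Abcc10 did not pass, at 0.11 and 0.08. None of the 4 tested pumps of this group fell.

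Substrates of these pumps are often glutathione conjugates, so genes of glutathione metabolism were set beside them. Of 12 genes of glutathione synthesis and conjugation 6 rose, 4 fell and 2 did not pass. Mgst1, a membrane-bound glutathione transferase, rose by a log2 fold change of 1.69 to 216 ± 1.87 CPM, while its relative Mgst3 fell by 1.27 to 12.7 ± 0.02 CPM. Gsta1, with decimal counts, had 30 and 25 counts with vehicle and is listed at 0 in both carfilzomib libraries. Of 15 tested sterol and xenobiotic regulators 5 rose, 3 fell and 7 did not pass. Keap1, the sensor that holds NRF2 in check, rose by 1.17, and Nr1h2, the widely expressed LXR, chosen after its value was seen, by 0.68. No other LXR or RXR gene of the list was called higher, and Rxrb, with decimal counts, fell by 0.23 (edgeR adjusted p = 0.00926). Ppara, a regulator of fatty acid use, has decimal counts and fell by 0.45.

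Of 11 tested genes of cholesterol handling 3 rose (27.3%), 2 fell (18.2%) and 6 missed the threshold. The shares over all genes tested were 30.6% and 30.1%. The median of the list was 0.09. Npc1, the lysosomal cholesterol exporter, rose by 0.45 on the log2 scale. Lcat, which esterifies cholesterol in plasma, fell by 0.38 with an edgeR adjusted p = 0.0142, and that call was lost without vehicle replicate 2, carfilzomib replicate 1 or carfilzomib replicate 2, at edgeR adjusted p = 0.0546, 0.0591 and 0.0741.

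Both sulfonylurea receptors, the ABC subunits of ATP-sensitive potassium channels, fell. Abcc8 (gene ID 25559), the receptor of pancreatic beta cells and of atrial muscle, was at 16.9 and 14.9 CPM with vehicle and 4.98 and 5.24 CPM with carfilzomib. This was a 3.11-fold fall, with a log2 fold change of -1.64 (SE 0.12, edgeR adjusted p = 2.54e-08). Abcc9 (gene ID 25560), the receptor of ventricular and vascular muscle, was at 75.7 and 70.5 CPM with vehicle and 50.8 and 49.9 CPM with carfilzomib. It has decimal counts, and its log2 fold change was -0.54 (SE 0.06, edgeR adjusted p = 2.24e-06). Neither pair of groups overlapped.

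Each receptor gene is next to a pore subunit gene in RefSeq GRCr8, Abcc8 to Kcnj11 and Abcc9 to Kcnj8. Kcnj11 fell from 8.72 and 8.66 CPM to 4.19 and 5.24 CPM, a log2 fold change of -0.88 (SE 0.15, edgeR adjusted p = 1.15e-04). Kcnj8 was at 2.53 and 2.49 CPM with vehicle and 2.72 and 2.28 CPM with carfilzomib, and did not pass (edgeR adjusted p = 0.987). Per length, Abcc9 exceeded Abcc8 by 3.21 and 3.37 times with vehicle and by 7.24 and 6.70 times with carfilzomib. Among the cell type markers given above, all those of cardiomyocytes, smooth muscle, pericytes and fibroblasts fell in the same libraries. Endothelial markers went both ways, with 2 of 6 lower and 2 higher, and macrophage markers mostly fell. The part of these shifts in the falls of the channel subunits was not tested.

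**Figure D4:**
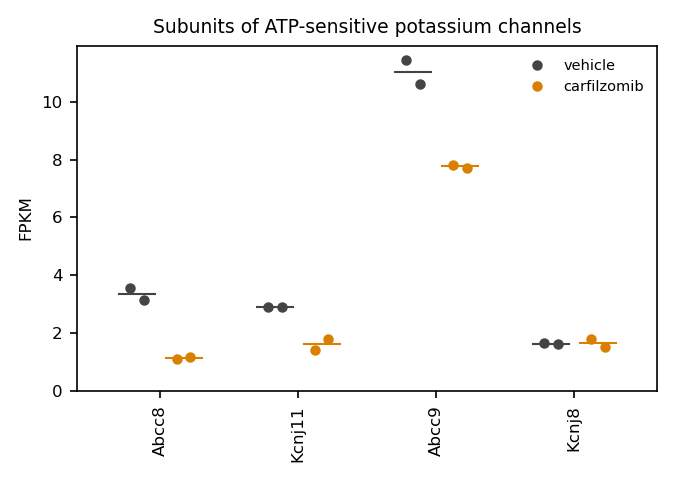
Deposited FPKM per library of the ABC subunits Abcc8 and Abcc9 and of their neighbouring pore subunit genes. Points are single libraries and lines are group means; Abcc8, Kcnj11 and Abcc9 are lower with carfilzomib and the Kcnj8 points overlap.

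The mitochondrial members diverged. Abcb6 (gene ID 140669), a porphyrin transporter, was at 52.3 and 53.1 CPM with vehicle and 138 and 139 CPM with carfilzomib. The replicates were almost equal and the groups far apart, with a 2.63-fold rise, a log2 fold change of 1.39 (SE 0.05, edgeR adjusted p = 7.45e-12). Abcb10, an inner membrane transporter needed for haem synthesis, fell from 17.7 and 19.6 CPM to 12.7 and 12.8 CPM, a log2 fold change of -0.55 (edgeR adjusted p = 1.52e-04). Abcb8, a transporter of the inner membrane, did not pass, at 0.08.

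Genes of haem synthesis were set beside these members. Alas1, the first enzyme of haem synthesis, rose by 0.72 on the log2 scale. The later haem enzymes Cpox, Ppox and Fech, chosen after their values were seen, rose by 0.61, 0.57 and 0.23.

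The peroxisomal importers Abcd3 and Abcd2 went in opposite directions. Abcd3, the abundant 70-kDa peroxisomal membrane protein, was at 63.4 and 62.4 CPM with vehicle and 92.2 and 97.5 CPM with carfilzomib. The log2 fold change was 0.59 (SE 0.06, edgeR adjusted p = 3.41e-07). Abcd2, an importer of long fatty acids, has decimal counts. It was lower in both treated libraries, at 4.20 and 4.76 CPM with vehicle and 2.72 and 2.81 CPM with carfilzomib. That fall of 0.69 had an edgeR adjusted p = 0.0052, which was 0.0594 without vehicle replicate 2 and 0.100 under DESeq2. Abcd4, which carries cobalamin out of lysosomes and not into peroxisomes, has decimal counts and rose by 0.58.

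The upstream windows of Abcd3 and Abcd2 are shown because these related genes went in opposite directions, with capitals as above. They lie at chr2:212590380-212590629 and chr7:124191203-124191452, both on the minus strand.
Abcd3: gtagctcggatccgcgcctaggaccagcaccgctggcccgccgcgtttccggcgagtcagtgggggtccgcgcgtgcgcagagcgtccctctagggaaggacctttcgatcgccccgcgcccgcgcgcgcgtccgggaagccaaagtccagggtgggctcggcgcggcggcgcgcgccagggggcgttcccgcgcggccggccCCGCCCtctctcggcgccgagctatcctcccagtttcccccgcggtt
Abcd2: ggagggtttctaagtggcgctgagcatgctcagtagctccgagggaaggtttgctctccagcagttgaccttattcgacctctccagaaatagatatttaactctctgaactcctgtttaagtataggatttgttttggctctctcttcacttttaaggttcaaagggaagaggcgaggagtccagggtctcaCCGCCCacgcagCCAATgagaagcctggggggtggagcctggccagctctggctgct
Both windows of 250 bases held a GC box, read on the other strand, and the Abcd2 window also held a CCAAT box. G and C made up 75.6% of the Abcd3 window and 52.0% of the Abcd2 window. Over the 250 bases before 1 listed start per gene, a GC box (GGGCGG, either strand) was present in 21 of 36 members with an entry, 58.3%, against 32.3% of 27457 genes, and in 9 of 12 members that rose and 6 of 7 that fell. These windows also held more G and C, with a median of 58.2% in members against 52% in all genes. The median was 62.2% in members that rose and 67.2% in those that fell. The 27457 genes are all those with an entry, whether or not they were expressed in these cells. The parts of base content and of this gene set in the GC box frequency were not tested. The CCAAT box, named by its letters, was in 36.1% of members and 34.2% of genes. The TATA box (TATAAA) was in 13.9% of members and 13.1% of genes. The E-box (CACGTG) was in 5.56% of members, Abca1 and Abcb6, and in 5.77% of genes. The antioxidant response element core (TGACNNNGC) was in 5.56% of members, Abcg5 and Abcg8, and in 10.2% of genes.

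In the peroxisome list 4 of 9 genes rose (44.4%), 0 fell and 5 did not pass, against 30.6% higher and 30.1% lower over all genes tested. Cat, catalase, with decimal counts, rose by a log2 fold change of 1.09, to 257 ± 6.58 CPM. Hsd17b4, an enzyme of peroxisomal beta-oxidation chosen after its value was seen, rose by 0.78. The import factors Pex5, Pex14 and Pex19 did not pass, at 0.08, -0.08 and 0.18, whereas Pex3 was among the 4 genes that rose.

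Among the soluble members Abcf1, Abcf3 and Abce1 rose and Abcf2 did not pass. Abcf1 (gene ID 85493), a factor of translation initiation, was at 168 and 164 CPM with vehicle and 247 and 250.5 CPM with carfilzomib. Its rise, with a log2 fold change of 0.58 (SE 0.04, edgeR adjusted p = 1.52e-08), was far outside the spread. Abcf3 rose by 0.55, from 75.4 and 70.7 to 105 and 109.6 CPM, while Abcf2 was at -0.05. Abce1, with decimal counts, went from 209 and 202 CPM to 229 and 235 CPM, a log2 fold change of 0.17 (SE 0.04, edgeR adjusted p = 0.00239). Of 8 genes of ribosome rescue and termination 4 rose, 2 fell and 2 did not pass; Pelo, which works with Abce1 on stalled ribosomes, rose by 0.76, and the ribosome scaffold Rack1 fell by 0.23.

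A run of 5 subfamily A genes, Abca8, Abca8a, Abca9, Abca6 and Abca5, stands side by side in RefSeq GRCr8. Abca5 at one end rose, Abca8a and Abca9 fell, Abca8 did not pass and Abca6 was too low to test. Abca9, with decimal counts, was at 14.6 and 11.5 CPM with vehicle and 9.22 and 10.1 CPM with carfilzomib. The log2 fold change of -0.44 had an edgeR adjusted p = 0.00768, which was 0.117 without vehicle replicate 1, at -0.26, and 0.0563 without carfilzomib replicate 1, at -0.38. In the remaining members without a role group that were tested, Abca16, Abcb9 and Abcg3, log2 fold changes lay between 0.07 and 0.10 and none passed.

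The ABC genes of antigen presentation, Tap1 and Tap2, had log2 fold changes of 0.12 and -0.25 and did not pass, whereas Tapbp, tapasin, their partner in peptide loading, rose by 1.18, from 39.3 ± 0.05 to 89.1 ± 2.00 CPM. Cftr, the chloride channel of the family, has decimal counts and was under 1.2 CPM in every library. It had a log2 fold change of 1.29 (edgeR adjusted p = 0.0161).

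**Figure D5:**
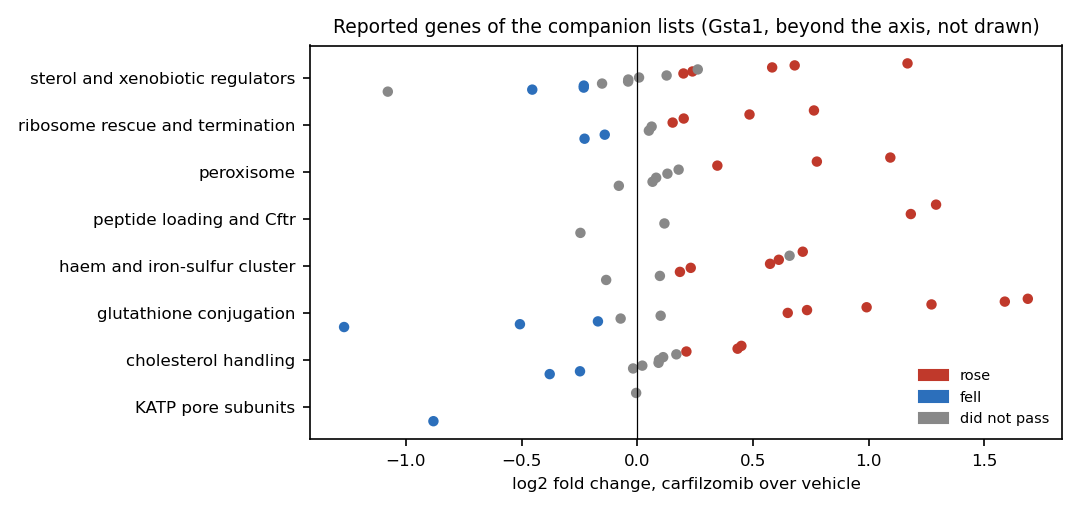
Log2 fold changes of the reported genes that work beside ABC proteins, 1 row per list and 1 point per gene, coloured by call. Gsta1 is not drawn; points lie from -1.27 (Mgst3) to 1.69 (Mgst1), both in the glutathione list.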

How the data were processed

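The gene table deposited by the authors holds estimated counts without normalisation, with decimals in 28.5% to 28.9% of genes per library (more than 1e-06 from a whole number), and FPKM values, per the file headers. The build Rnor_6.0, the aligners Bowtie2 and HISAT, the counter featureCounts 1.6.0, R 3.3.2 with DESeq2, and cutadapt 2.0 and FastQC 0.11.8 are named in the submitters' processing notes. Neither strand nor the origin of the decimals is given in the sources used here. A deposited table of the authors' log2 fold changes with p-values and q-values lists 6063 genes. Columns named CON were taken as vehicle, and 10 columns were not used.

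Counts were rounded and tested with edgeR 4.0.16 (R 4.3.3): filterByExpr (minimum count 10, minimum total 15), TMM, robust quasi-likelihood F test, Benjamini-Hochberg adjustment over 14519 genes at 0.05. CPM are TMM-normalised, and each SE is the size of the log2 fold change over the root of F. The common biological coefficient of variation was 0.0465. Replicates differed by more than sampling noise (chi-square per degree of freedom 3.42 and 3.08). Scripts were tested on simulated data. Alternatives were DESeq2 1.42.0, limma-voom (limma 3.58.1), other scaling, other filters, a replicate block, and leaving out each library. Members, companion lists and tests were chosen with earlier results of these data known. Genes chosen by rule are the 4 multidrug pumps, Abca1, Abca2 and Abcc4. In each subfamily they include up to 2 called members per direction (mean CPM 1 or more) and the most abundant member. Each companion list gave up to 1 called gene per direction. Some genes chosen by rule are given by log2 fold change without an adjusted p. Of the list entries 1 symbol, Nr1i2, had no row. All 46 gene IDs were found in the RefSeq gene table (GRCr8) and 36 in its promoter table. Values of some members and companion genes are not reported here, in the text or the figures.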

Additional observations from a re-analysis of the deposited data

How the results depend on the processing

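Of the 24 called members, 19 kept their direction and their call under DESeq2, limma-voom, other scaling, other filters, the replicate block and without each library; Abca4, Abca9, Abcb1a, Abcd2 and Abcg2 lost it in at least 1 of these. Under DESeq2 5 members were called lower, against 9, and 14 higher, against 15. Over all genes DESeq2 called 3149 lower, against 4368, and 3340 higher, against 4444. Of the 17 tested members without decimal counts 2 were lower and 10 higher in the main fit. Of all 9300 tested genes without decimal counts 2973 were lower and 2947 higher. Without each library in turn, 14 to 15 members were higher, 6 to 7 lower, and 7360 to 7974 genes called. With the replicate block 15 members were higher, 8 lower and 8229 genes called; libraries of the same number did not deviate together (correlation -0.08), so the numbers were not taken as pairs. Reported members that did not pass changed sign: without each library in turn Abca16 ran from -0.16 to 0.35, Abcb1b from -0.0065 to 0.087 and Abcg3 from -0.074 to 0.20. Abcb1a, which had passed, was at 0.0037 when summed with Abcb1b, as the construction of that sum, mostly Abcb1b, implies. For the others the cause was not tested. The median level was 10.5 CPM in the members that fell and 64.6 CPM in those that rose, and the part of depth in the calls was not tested.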
